A study of Mus musculus with 9 samples.

Results

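Open chromatin regions that lie inside protein-coding genes, away from both gene ends, were described in mouse LSK cells, the lineage-negative, Sca-1-positive, Kit-positive fraction of bone marrow in which blood stem cells and their first progeny are found. Peaks of all 9 ATAC-seq libraries that shared 1 bp were merged on the 19 autosomes. A merged region counted as a gene-body region when its midpoint lay inside the GRCm38 span of a named coding gene and more than 1 kb from both ends of every such gene, so no measured level entered the choice. The rule gave 31392 gene-body regions of 74587 autosomal regions (42.1%), beside 13692 regions (18.4%) at gene ends and 29503 (39.6%) outside genes. Genes with a model number or clone name in place of a name were not counted as genes, so regions counted as outside genes may lie in such loci.

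The libraries came from LSK cells labelled WT (n = 2), Bcat_KO (the gene of β-catenin, n = 2), PRMT1_KO (n = 2), HOXA9_KO (n = 2) and, as a single library, dKO (β-catenin together with Hoxa9, n = 1). The titles write KO and the genotype tags write knockdown; the title names are kept, and the allele and any Cre driver are not given in the sources used here. The series text names transplanted Prmt1KO mice as the donors of LSK cells, and the labels do not state transplantation, age, strain or separate mice for the single libraries, so the tests see only the spread from library to library, which may be technical. The background depth inferred for the lists, in reads per kb, reached 7.38 and 6.29 in WT, 8.27 and 8.67 in HOXA9_KO, 9.61 and 9.82 in Bcat_KO, 11.2 and 10.9 in PRMT1_KO and 2.41 in the dKO, and the dKO was named after another sequencing run, so its run and its genotype cannot be told apart. Of the defining LSK genes, Cd34 and Flt3 had a gene-end peak in all 9 libraries and Kit in 8, whereas Ly6a, the gene of Sca-1, had no peak in any library. The T cell genes Cd3e and Cd3g, the B cell gene Ms4a1 and the granulocyte genes Ly6g and Elane had no peak in any library.

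Open regions inside genes are known to include enhancers, which bind transcription factors and can act on the host gene or on distant genes, and alternative promoters, from which shorter or different transcripts of the host start. In canonical Wnt signalling, β-catenin enters the nucleus and acts through TCF/LEF factors. Hoxa9 belongs to the homeobox factors that keep stem cells self-renewing, and Prmt1 methylates arginines of histones and other proteins. In blood stem and progenitor cells, factors such as Runx1, Erg, Fli1 and Mecom are known to be controlled by enhancers within their own introns. Exons and introns were not told apart here, because no exon annotation was used.

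The clearest subdivision among the gene-body regions was by transcription start. Of 31392 gene-body regions, 1881 (5.99%) overlapped a RefSeq promoter window, which runs from 250 bases before to 50 bases after a transcript start, and 1592 of them overlapped a second start of the host gene itself. Such internal starts were unevenly open: of 3565 second starts of host genes, 1755 (49.2%) lay under a gene-body region, against 452 (16%) of 2831 starts that belong to another gene inside the host. The sequences before 8 internal starts are shown to compare starts that were open in every library, starts called opened or closed between groups and starts without any region. They are the 250 bases upstream of the start, 5′ to 3′ on the strand of the gene, from the RefSeq promoter table on GRCm38.p6, with CG dinucleotides in capitals. Hint3 (a nucleotide hydrolase of the histidine triad family) at chr10:30618367-30618616 on the minus strand, and Arrdc3 (an arrestin-domain adaptor protein) at chr13:80885845-80886094 on the plus strand, stood among the strongest starts open in all 9 libraries. Mef2c (a MADS-box transcription factor) at chr13:83523406-83523655 on the plus strand is the single internal start of the listed stem and progenitor factors that was open in all 9. Nhsl1 at chr10:18407425-18407674 on the plus strand, Plxnb2 (a semaphorin receptor) at chr15:89180789-89181038 on the minus strand and Tbc1d1 (a Rab GTPase-activating protein) at chr5:64160010-64160259 on the plus strand lay under regions called opened or closed between groups. Foxp1 at chr6:99266516-99266765 on the minus strand and Gse1 at chr8:120488616-120488865 on the plus strand are internal starts without a region, taken from the 10 genes with most regions.
Hint3: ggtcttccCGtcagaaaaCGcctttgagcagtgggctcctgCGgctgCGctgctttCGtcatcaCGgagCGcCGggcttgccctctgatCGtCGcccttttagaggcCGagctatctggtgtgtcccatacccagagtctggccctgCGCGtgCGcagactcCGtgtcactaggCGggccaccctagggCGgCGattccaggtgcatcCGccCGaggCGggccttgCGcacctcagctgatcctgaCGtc
Arrdc3: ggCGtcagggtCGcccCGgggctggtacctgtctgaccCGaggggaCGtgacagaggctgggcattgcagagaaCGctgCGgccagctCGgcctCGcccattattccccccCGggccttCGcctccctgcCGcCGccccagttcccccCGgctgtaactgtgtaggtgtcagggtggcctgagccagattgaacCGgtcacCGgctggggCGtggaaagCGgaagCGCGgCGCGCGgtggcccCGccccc
Mef2c: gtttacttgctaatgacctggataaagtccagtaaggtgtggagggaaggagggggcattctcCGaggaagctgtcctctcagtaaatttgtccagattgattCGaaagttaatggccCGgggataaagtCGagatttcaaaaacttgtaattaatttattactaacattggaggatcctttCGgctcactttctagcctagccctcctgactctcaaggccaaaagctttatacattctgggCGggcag
Nhsl1: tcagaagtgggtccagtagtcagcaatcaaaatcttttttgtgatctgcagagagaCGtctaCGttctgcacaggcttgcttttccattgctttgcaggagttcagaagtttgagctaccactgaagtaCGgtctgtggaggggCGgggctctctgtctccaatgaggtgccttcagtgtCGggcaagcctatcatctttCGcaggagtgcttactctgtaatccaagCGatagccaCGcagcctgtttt
Plxnb2: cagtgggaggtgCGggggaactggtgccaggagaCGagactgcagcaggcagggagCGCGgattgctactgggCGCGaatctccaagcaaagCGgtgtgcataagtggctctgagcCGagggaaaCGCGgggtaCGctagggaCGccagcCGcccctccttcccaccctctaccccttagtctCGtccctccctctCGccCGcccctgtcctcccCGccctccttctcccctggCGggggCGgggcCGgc
Tbc1d1: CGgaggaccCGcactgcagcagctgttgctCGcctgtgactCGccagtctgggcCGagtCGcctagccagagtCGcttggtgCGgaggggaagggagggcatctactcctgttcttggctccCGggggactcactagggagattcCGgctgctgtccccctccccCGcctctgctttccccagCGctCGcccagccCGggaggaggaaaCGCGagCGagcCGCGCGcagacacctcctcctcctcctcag
Foxp1: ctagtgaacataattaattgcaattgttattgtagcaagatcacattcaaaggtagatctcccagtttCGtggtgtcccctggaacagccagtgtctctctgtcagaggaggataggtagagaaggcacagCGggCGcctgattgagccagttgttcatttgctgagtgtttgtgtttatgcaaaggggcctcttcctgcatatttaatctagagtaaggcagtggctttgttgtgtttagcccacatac
Gse1: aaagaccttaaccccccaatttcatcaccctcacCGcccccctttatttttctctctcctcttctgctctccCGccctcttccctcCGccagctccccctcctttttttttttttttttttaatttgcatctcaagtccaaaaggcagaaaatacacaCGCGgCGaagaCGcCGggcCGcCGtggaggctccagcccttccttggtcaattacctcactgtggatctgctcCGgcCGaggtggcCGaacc
The windows of Hint3 and Arrdc3 held 23 and 24 CG dinucleotides, that of Foxp1 held 3 and that of Gse1 held 13. Mef2c departs from this, with 6 CG dinucleotides and 44.8% G and C in a window that was open in all 9 libraries.

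This difference in base composition extended over the internal starts as a whole. The median number of CG dinucleotides per 300-base window was 24 in the 819 internal starts whose region had a peak in all 9 libraries, 13 in the 1388 with a peak in 1 to 8 libraries and 4 in the 4078 without any region, beside 7 in all 31396 autosomal windows. The other 111 internal starts lay under a region whose midpoint was at a gene end or outside genes and are left out of these sets. The letters CGGAAG, read on both strands as a core of ETS factor sites in CG-rich promoters, occurred in 28% of the windows open in all 9 libraries, in 19.5% of those open in 1 to 8 and in 6.11% of those without a region, beside 17% of all windows. The letters AGATAA, the core of GATA factor sites, ran the other way, at 3.91%, 7.13% and 14.5%, beside 11.2% of all windows. TGATTNAT, a form of HOX-PBX sites, was in 1.22%, 2.16% and 4.1% of the windows, and CTTTGAT, a form of TCF/LEF sites, in 2.2%, 1.95% and 4.73%. The windows differ in base composition in the same order, so the letters and the composition were not told apart, and a match is a description and not a bound site.

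Gene-body regions were weaker than regions at gene ends in every library. Strength was expressed as the percentile rank of a peak within its own list by −log10 p, where 0 is the strongest and 100 the weakest. The 9 lists held 10639 to 45460 peaks, so percentiles of 1 region in different libraries are set side by side as its place in each list and are not read as a change. The median percentile of peaks inside gene bodies was 59.2 and 60.6 in WT, 58.2 and 57.6 in HOXA9_KO, 57.1 and 56.9 in Bcat_KO, 57.2 and 57.3 in PRMT1_KO and 61.6 in the dKO. At gene ends it was 23.2 to 27.4 in the 8 libraries of the paired groups and 40.5 in the dKO, so the classes did not overlap. Gene-body peaks ranked 31.4 ± 4.23 points (SD, n = 9) weaker than gene-end peaks, in 9 of 9 libraries (exact sign-flip permutation test over libraries, two-sided p = 0.00391, the smallest this test can give). Against peaks outside genes they ranked stronger by a small margin, with a difference of -1.22 ± 0.871 points (SD, n = 9) in 9 of 9 libraries (exact sign-flip permutation p = 0.00391). This small margin did not hold when peaks were ranked by fold enrichment, where the mean difference was 0.425 points (exact permutation p = 0.363), nor with the stricter peak threshold, where it was -1.08 points (exact permutation p = 0.16).

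Regions at internal starts stood apart from the other gene-body regions. Gene-body regions at a RefSeq start ranked 27.1 points stronger than the other gene-body regions, a difference of -27.1 ± 2.37 points (SD, n = 9) in 9 of 9 libraries (exact sign-flip permutation p = 0.00391). They were still weaker than gene ends, by 7.16 ± 1.65 points (SD, n = 9) in 9 of 9 libraries (exact sign-flip permutation p = 0.00391). Without the regions at starts, gene-body regions ranked 1.55 ± 0.746 points (SD, n = 9) weaker than regions outside genes, in 9 of 9 libraries (exact sign-flip permutation p = 0.00391). These 5 differences in rank were adjusted together by Benjamini-Hochberg, which left p at 0.00391 for each.

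**Figure D1:**
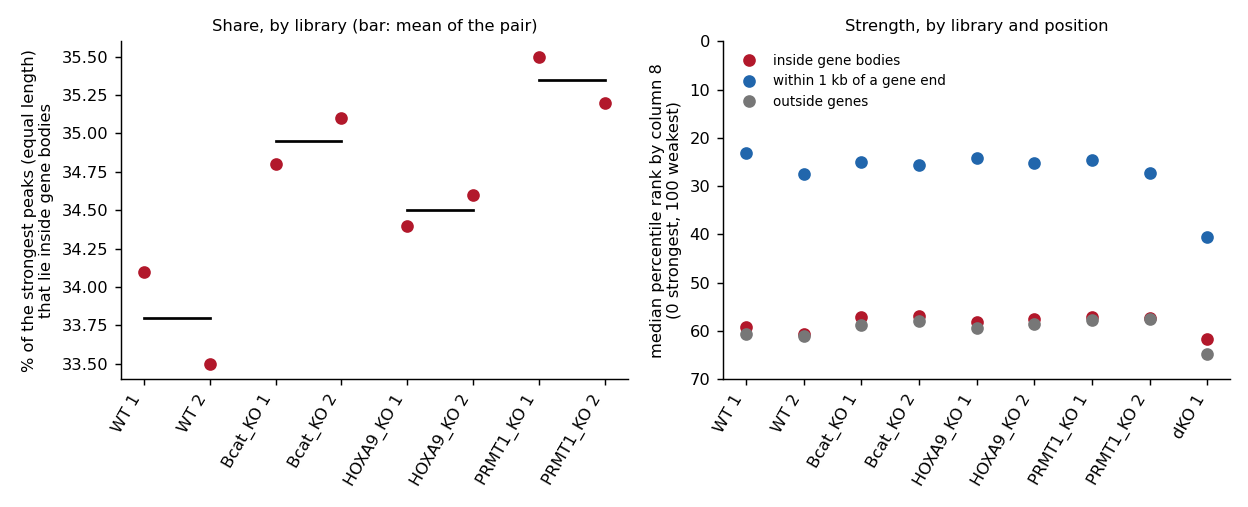
Left, the percentage of the 28325 strongest peaks of each library that lie inside gene bodies, with a bar at the mean of each pair of libraries; right, the median percentile rank by −log10 p of peaks in 3 positions, one point per library. The pairs on the left do not overlap, from 33.5% in a WT library to 35.5% in a PRMT1_KO library, and on the right gene-body peaks lie close to peaks outside genes and far below gene-end peaks in all 9 libraries.

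The share of strong peaks that lay inside gene bodies differed between the groups by a small amount. To compare lists of different length, each of the 8 lists of the paired groups was shortened to its 28325 strongest peaks, the length of the shortest. Gene bodies then held 34.1% and 33.5% of the autosomal peaks in WT, 34.4% and 34.6% in HOXA9_KO, 34.8% and 35.1% in Bcat_KO, and 35.5% and 35.2% in PRMT1_KO. The groups followed each other in this order without overlap, and PRMT1_KO exceeded WT by 1.61 percentage points. This division into pairs separated the libraries more than any of the other divisions of 8 libraries into 4 pairs (exact permutation test over 105 divisions, p = 0.00952, the smallest they allow, adjusted p = 0.0143 over 3 positions). The gene-end share moved the opposite way, by -1.98 points from WT to PRMT1_KO (exact permutation p = 0.00952, adjusted p = 0.0143), and the share outside genes gave p = 0.61 in the same exact test. Depth, which was 7.38 and 6.29 reads per kb for WT against 11.2 and 10.9 for PRMT1_KO, rose in the same order of groups as the share, and its part in the result was not tested. Cut to the 10639 peaks of the dKO list, the share was 21.4% to 25.3% in the other 8 libraries and 24.5% in the dKO.

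Most gene-body regions were found in few libraries. A peak in only 1 of 9 libraries was the case for 11465 regions (36.5%), a peak in exactly 8 for 4009 (12.8%) and a peak in all 9 for 1643 (5.23%). At gene ends 13.3% of regions were found in 1 library and 37.4% in all 9, and outside genes 38.8% and 4.22%. With lists of equal length, 24.2% of gene-body regions were present in all 8 libraries of the paired groups, against 68.9% at gene ends and 20.6% outside genes. Recurrence went with strength, since the median percentile of gene-body regions passed from 89.8 for regions of 1 library to 23.5 for regions of 9, and the median width from 197 to 939 bp. It also went with internal starts, which lay under 146 (1.27%) of the regions of 1 library and under 646 (39.3%) of the 1643 regions of all 9.

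**Figure D2:**
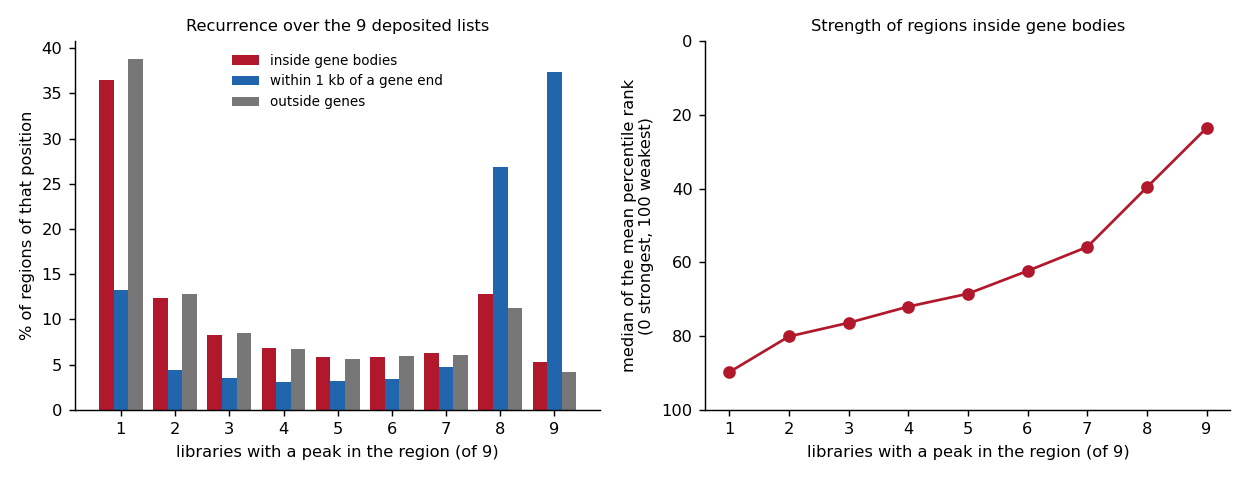
Left, the percentage of merged regions of each position that had a peak in 1 to 9 of the 9 deposited lists; right, for gene-body regions, the median of the mean percentile rank against the number of libraries. Regions inside gene bodies and outside genes pile up at 1 library (36.5% and 38.8%), gene ends at 9 (37.4%), and gene-body regions grow stronger with each added library.

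Replicate libraries shared only part of their gene-body regions. The Jaccard index (shared regions over all regions, at equal list length) was 0.651 in the Bcat_KO pair, 0.651 in the HOXA9_KO pair, 0.680 in the PRMT1_KO pair and 0.556 in the WT pair. Between groups it was highest for Bcat_KO with PRMT1_KO, at 0.621 to 0.636 over 4 library pairs, and lowest for HOXA9_KO with WT, at 0.499 to 0.516. The WT pair was thus less alike than libraries of Bcat_KO and PRMT1_KO were, and than those of Bcat_KO and HOXA9_KO, at 0.593 to 0.603. WT replicate 1 was also closer to the PRMT1_KO libraries, at 0.569 and 0.562, than to WT replicate 2. WT replicate 2 stood at 0.533 and 0.530 with PRMT1_KO. At gene ends the index was 0.863 to 0.887 within groups and 0.840 to 0.883 between groups.

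The 6 strongest gene-body regions present in all 9 libraries lay away from known starts. The first by mean percentile lay in Chl1 (a neural cell adhesion molecule; chromosome 6, 103649047 to 103649298), is 252 bp wide, and ranked within the strongest 0.0564% of every list. Its fold over the local background was 52.6 ± 3.76 in WT, 61.5 ± 4.06 in HOXA9_KO, 66.8 ± 3.52 in Bcat_KO, 64.4 ± 3.55 in PRMT1_KO (SD, n = 2 each) and 47.8 in the dKO. Zc3h7a, the shared span of Cmss1 and Filip1l, Pcmtd1, Cdk8 (a kinase of the Mediator complex) and Zfp446 followed. No filter for repeats or for sequence with abnormal read depth was applied here, and the part of such sequence in these regions was not tested. Among regions at a second start of the host, Hint3 came first, with a fold of 20.5 ± 1.41 in WT, 21.1 ± 3.46 in HOXA9_KO, 23.1 ± 1.43 in Bcat_KO, 23.9 ± 0.141 in PRMT1_KO (SD, n = 2 each) and 13.6 in the dKO. Arrdc3 ranked at 0.23 and 0.537 in WT, 1.05 and 1.27 in HOXA9_KO, 0.506 and 0.638 in Bcat_KO, 0.274 and 0.496 in PRMT1_KO and 2.22 in the dKO, so both of these CG-rich starts stayed near the top of each list.

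Gene-body regions were found in 9075 coding genes, 52.6% of the 17267 that are longer than 2 kb, and were concentrated in a few. The 668 genes with 10 or more regions held 33.1% of all region-gene pairs, and 134 genes held 20 or more. Longer genes held more: the share of genes with a region was 18.5% for spans of 2 to 10 kb and 91.7% for 100 to 300 kb. Per length, however, the density was 3.93 per 100 kb in the shortest of these classes, 3.7 at 100 to 300 kb, 2.12 at 300 to 1000 kb and 1.02 in the 54 genes above 1000 kb. Along 7271 genes of at least 20 kb, the density was 3.89 per 100 kb in the first of 5 equal stretches from the gene start and 2.94 to 3.35 in the others. Without the regions at internal starts it was 3.36 in the first stretch and 2.83 to 3.16 in the others.

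The 10 genes with most regions were Zfp978 (59), Foxp1 (55), Pde4d (53), Gse1 (49), Arhgap26 (45), Etv6 (44), Nav2 (43), Arid1b (42), Zfhx3 (42) and Mecom (38). Foxp1, Etv6, Zfhx3 and Mecom encode transcription factors, Arid1b a subunit of the BAF chromatin remodelling complex, Pde4d a cAMP phosphodiesterase and Arhgap26 a GTPase-activating protein. Zfp978, a zinc finger gene, stood apart: 34 of its 59 regions were found in 1 library, 2 in all 8 of the paired groups, and their median percentile was 90.2. At equal list length Zfp978 had 9 and 5 regions in WT, 3 and 2 in HOXA9_KO, 1 and 0 in Bcat_KO and 1 and 0 in PRMT1_KO. Both WT libraries were above the mutants at that length only. In the lists as deposited Zfp978 had 14 and 5 regions in WT and 12 to 19 in the mutants. Counting only regions found in at least 2 libraries, Zfp978, Nav2 and Mecom left the leading 10 and Maml3, Zmiz1 and Vps13d entered. The other leaders went different ways at equal length. Foxp1 had 12 and 12 regions in WT and 11 to 15 in the 6 mutant libraries, Etv6 had 13 and 10 against 11 to 13, Nav2 12 and 14 against 13 to 19, and Arid1b 11 and 8 against 8 to 12, so WT lay within or overlapped the mutants. Arhgap26 had 14 and 8 in WT and 15 to 19 in the mutants, and Pde4d had 17 and 17 in WT and 18 to 23 in the mutants, so WT was lowest. Gse1 had 18 and 21 in WT and 14 to 18 in the mutants, and Zfhx3 had 16 and 16 against 10 to 16, so WT was highest or level with the highest mutant library. The lists as deposited did not keep this, with 23 and 21 in WT against 24 to 33 for Gse1. For Zfhx3 they gave 19 and 16 against 17 to 26. Mecom, a regulator of stem cell maintenance, had 5 and 4 in WT, 10 and 6 in HOXA9_KO, 7 and 9 in Bcat_KO and 7 and 7 in PRMT1_KO, which put both WT libraries lowest.

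Counts that recur in every library gave another order. Gse1 had 12 regions with a peak in all 8 libraries of the paired groups, Nfia (a transcription factor) had 11, and Prkag2, Bach2 (a repressor of lymphoid and myeloid differentiation), Maml3 (a Notch coactivator), Tiam1, Pde4d and Wwox had 10 each. Per 100 kb, among genes with at least 5 regions, Sp110 had 42.4, Sfi1 36.4, Epha1 33.7, Lif 33.5, Rwdd3 30.5, Lat2 30.5, Srgn 29.8, Rhof 29.6, Hlf 29.4 and Nr4a1 28.7. Hlf, a transcription factor of stem cells, had 16 regions, 9 of them in 1 library and none in all 8, and at equal length 0 or 1 per library. The median fold in Sfi1 was 1.99, the lowest among these 10 genes, and the part of repeats or of sequence with abnormal read depth in it was not tested. The gene names at the head of this order thus rest on weak regions in Hlf and Epha1 and on regions of low fold in Sfi1.

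**Figure D3:**
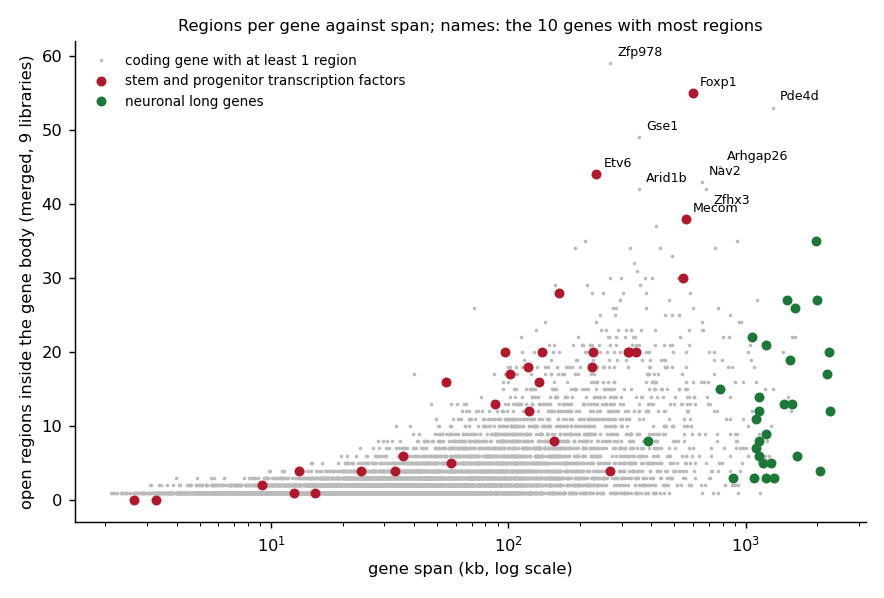
Number of merged gene-body regions against gene span in kb (log scale), one grey dot per coding gene with at least 1 region, red for the listed stem and progenitor transcription factors, green for the listed long genes known mostly from neurons. Zfp978 leads with 59 regions and the red genes lie high for their span. The green genes, with a median of 12 regions, lie near all genes above 1000 kb, whose median is also 12 and to which most green genes belong.

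By function, the listed stem and progenitor transcription factors had the densest gene bodies. Of these 30 genes, 28 had a region, 464 in all, or 9.25 per 100 kb of their pooled span, with a median of 16 regions per gene, where all genes longer than 2 kb pooled to 3.27 per 100 kb with a median of 1. Etv6 had 18.8 per 100 kb, Mef2c 17.2, Meis1 (a cofactor of Hoxa9) 14.4, Fli1 14.8, Bcl11a 20.6 and Runx1 8.01, while Cebpa and Lyl1, which span 2.64 and 3.29 kb, had none. The cytokine receptors and signalling genes pooled to 8.03 per 100 kb (23 of 27 genes with a region), led by Igf1r with 25 regions, Jak1 with 22 and the Src-family kinase gene Lyn with 18. The Wnt pathway pooled to 4.86 (25 of 26 genes), led by Tcf7l2 with 15 and Tle4 with 14, and the chromatin regulators to 4.11 (26 of 31 genes). Ctnnb1, the gene of β-catenin, had 2 weak regions, each in 1 library, and Prmt1 had none in its 9.67 kb span. The DNA replication and repair genes pooled to 2.29 per 100 kb (21 of 32 genes), and 57 of their 113 regions lay in the long fragile-site genes Wwox (35) and Fhit (22). The long genes known mostly from neurons pooled to 0.927 (each of the 29 genes that matched the annotation had a region). This was near the 1.02 of all 54 genes above 1000 kb. Most of the listed long genes, whose median span was 1220 kb, belong to that class themselves, so the closeness is in part built in.

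Across the groups these totals behaved differently from list to list. At equal list length the stem and progenitor transcription factors held 134 and 116 regions in WT, 132 and 120 in HOXA9_KO, 129 and 123 in Bcat_KO and 133 and 137 in PRMT1_KO, and WT overlapped each mutant. The long neuronal genes held 94 and 85 in WT, 102 and 113 in HOXA9_KO, 78 and 95 in Bcat_KO and 66 and 62 in PRMT1_KO, so both HOXA9_KO libraries were above WT and both PRMT1_KO libraries below it. The Wnt pathway held 31 and 34 in WT, 45 and 42 in HOXA9_KO, 44 and 39 in Bcat_KO and 34 and 37 in PRMT1_KO. The cytokine receptors and signalling genes held 43 and 50 in WT, 49 and 49 in HOXA9_KO, 46 and 55 in Bcat_KO and 61 and 56 in PRMT1_KO, the 2 highest being those of PRMT1_KO. These lists were drawn up with earlier results known, so the totals are given without a test.

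Second starts were among the open regions of several of these factors. Of the stem and progenitor list, 12 genes had 13 regions at a second start of their own, of which 6 had a peak in at least 8 libraries and 1 in all 9. The region at Runx1 (chromosome 16, 92696728 to 92697804), which lies at a start inside this gene of a master factor of blood stem cell formation, ranked at 23.9 and 53.7 in WT, 54.5 and 49.9 in HOXA9_KO, 35.7 and 42.2 in Bcat_KO and 35.7 and 32.3 in PRMT1_KO. All 8 libraries of the paired groups listed a peak there, and the dKO had none. The region at Elf1 (an ETS factor; chromosome 14, 79515342 to 79516051) ranked at 67.8 and 51.5 in WT and at 20.2 to 36 in the 6 mutant libraries. The Mef2c region whose sequence is shown ranked at 18.7 to 31.7 in the 8 libraries and at 54.5 in the dKO.

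To describe changes between groups, a region was called opened in a first group when both its libraries ranked it within their strongest 14162 peaks and outside the strongest 28325 of both libraries of the second group, and closed in the reverse case. A permutation of 2 against 2 libraries cannot reach a threshold of 0.05 and no other test was run for single regions, so calls carry no p. The last of the 28325 peaks stood at percentile 62.3 to 100 of the full lists of the 8 WT and single-mutant libraries, so a peak listed beyond that point counts as outside. The 3 comparisons with WT share the WT libraries.

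In Bcat_KO against WT, 56 of 14935 gene-body regions (0.375%) were called opened and 17 (0.114%) closed, where 0.293% and 0.086% of all regions were called, and 0.0551% and 0.0184% of those at gene ends. In HOXA9_KO against WT, 96 of 15088 (0.636%) were opened and 23 (0.152%) closed, beside 0.489% and 0.17% of all regions. In PRMT1_KO against WT, 34 of 14749 (0.231%) were opened and 10 (0.0678%) closed, beside 0.202% and 0.0691% of all regions. The opened shares in gene bodies were thus near those of all regions and near those outside genes, which were 0.393%, 0.626% and 0.281%. The closed shares outside genes were 0.109%, 0.299% and 0.0962%, so in HOXA9_KO against WT the gene-body share was the lower. At gene ends 0.109% were opened and 0.0273% closed in HOXA9_KO, and 0.0647% and 0.037% in PRMT1_KO. Opened regions outnumbered closed ones in each mutant, and WT was also the shallowest group; the part of depth was not tested. With lists as deposited the opened counts were 338, 332 and 242 and the closed counts 10, 14 and 8.

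Between mutants, HOXA9_KO against PRMT1_KO gave the most calls, with 54 of 14491 gene-body regions (0.373%) opened and 67 (0.462%) closed, beside 0.303% and 0.381% of all regions. HOXA9_KO against Bcat_KO gave 23 of 14040 opened and 21 closed (0.128% and 0.117% of all regions), and Bcat_KO against PRMT1_KO gave 7 of 13871 opened and 4 closed (0.0572% and 0.03% of all regions). Regions at a RefSeq start made up 0 to 2 of the calls of each comparison and direction, for instance 1 of the 67 closed in HOXA9_KO against PRMT1_KO. They were 5.99% of all gene-body regions and 9.94% to 15.7% of the gene-body peaks in the libraries of the paired groups. Their share among the regions tested was not taken. The hosts of the opened regions in HOXA9_KO against PRMT1_KO had a median span of 168 kb and those of the closed regions 90.6 kb, beside 99.9 kb for all gene-body regions tested. In HOXA9_KO against Bcat_KO the spans were 251 kb for opened and 152 kb for closed.

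Regions that were open in all mutants and missing in WT lay in 6 genes, of 11 such regions at any position, 0.0241% of the 45701 regions in the equal-length lists. They were Lef1 (a TCF/LEF partner of β-catenin), Hey1 (a Notch target repressor), Chd7 (a chromatin remodeller), Jmjd1c (a histone demethylase), Uchl5 (a proteasome-associated deubiquitinase) and Vmp1 (an autophagy protein), and none had a peak in either full WT list. The Lef1 region (chromosome 3, 131157381 to 131157911) ranked at 19.4 and 21.9 in HOXA9_KO, 28.4 and 16.5 in Bcat_KO and 15.5 and 24.2 in PRMT1_KO. All 6 mutant libraries listed it among their stronger peaks, both Bcat_KO libraries included. The Chd7 region (chromosome 4, 8811076 to 8811604) ranked at 14 to 21.9 in the 6 mutant libraries and, alone among these 6, also had a dKO peak, at 39. The Hey1 region (chromosome 3, 8664544 to 8664944) ranked at 20.8 to 28.6 in the mutants, and the Vmp1 region (chromosome 11, 86592884 to 86593556) at 11.6 to 27.5. In the opposite direction, Dock9 (a guanine nucleotide exchange factor for Cdc42; chromosome 14, 121731675 to 121732370) ranked at 34.2 and 41.8 in WT, at 69.3 to 84.4 in Bcat_KO and PRMT1_KO, and had no peak in HOXA9_KO.

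**Figure D4:**
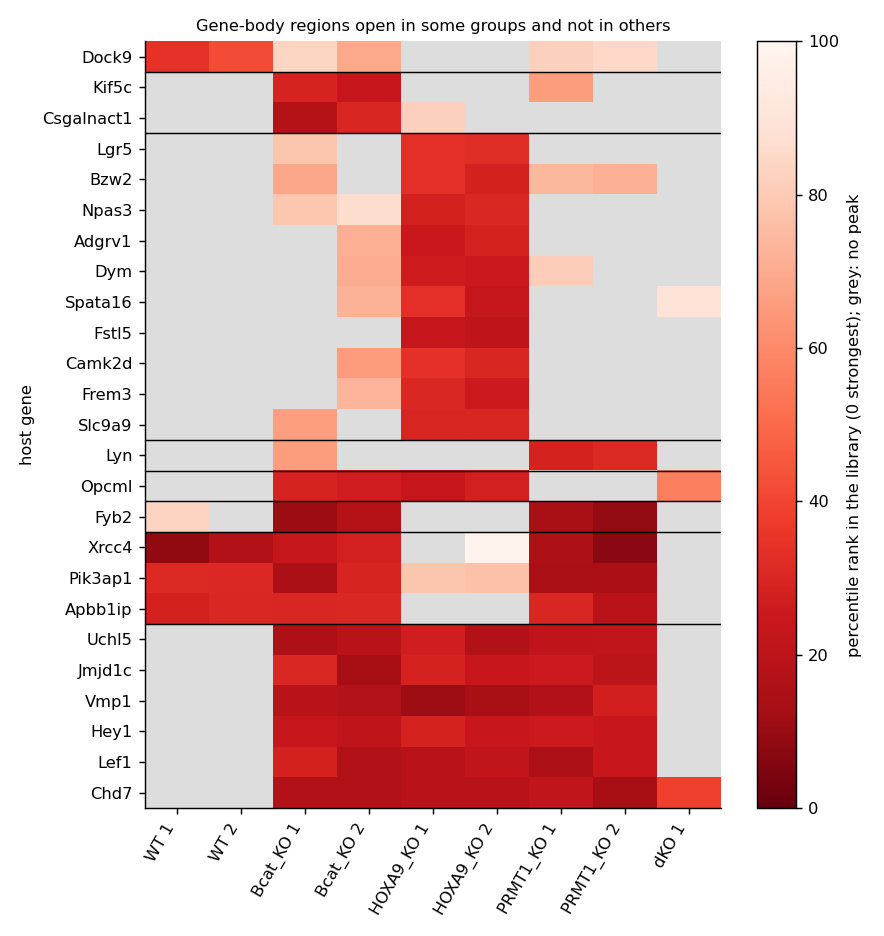
Percentile rank (0 strongest, dark; grey, no peak) in each of the 9 libraries for gene-body regions that were among the strongest 14162 peaks in every library of 1 or more paired groups and absent at equal list length from the others; black lines separate the patterns and rows are named by host gene. Of the 11 regions open only in HOXA9_KO, 10 are drawn and form the longest block, and the 6 of the 3 mutants together the next.

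HOXA9_KO had the most gene-body regions of its own. It alone held 11 regions (of 22 at any position, 0.0481% of 45701), against 1 in WT (0.00656%), 2 in Bcat_KO (0.0109%) and 1 in PRMT1_KO (0.00656%). The hosts included Lgr5 (an R-spondin receptor of Wnt signalling), Camk2d (a calmodulin-dependent kinase), Npas3 (a neuronal bHLH factor), Adgrv1, Bzw2, Dym, Spata16, Fstl5, Frem3 and Slc9a9. The Fstl5 region (chromosome 3, 76251367 to 76251719) ranked at 23.6 and 20.8 in HOXA9_KO, with a fold of 12.1 ± 0.898 (SD, n = 2), and no other library listed a peak there. The Lgr5 region (chromosome 10, 115518568 to 115519373) ranked at 33.5 and 32.5 in HOXA9_KO and 78.4 in Bcat_KO replicate 1. Among these 11, 10 also had a weak peak in at least 1 Bcat_KO library, and none had a peak in WT.

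Other patterns were rarer. Xrcc4, a DNA ligase partner in end joining, had a region (chromosome 13, 89888958 to 89889577) that ranked at 8.92 and 16.7 in WT, 22.8 and 28 in Bcat_KO and 15.6 and 7.33 in PRMT1_KO, while HOXA9_KO had no peak in replicate 1 and one at 98.5 in replicate 2. Its fold was 14.2 ± 1.54 in WT and 14.9 ± 3.12 in PRMT1_KO (SD, n = 2 each), and 3.19 in the HOXA9_KO library that listed it. Pik3ap1 (a PI3 kinase adaptor) and Apbb1ip (a Rap1 effector of integrin activation) shared this pattern, which held 3 gene-body regions of 9 at any position (0.0197%). The Fyb2 region (chromosome 4, 104948792 to 104949486) was strong in Bcat_KO and PRMT1_KO, at 9.74 to 18.2, weak in WT replicate 1, at 83.5, and not listed in WT replicate 2 or HOXA9_KO, a pattern with no other region at any position (0.00219%). The Opcml region (chromosome 9, 28289570 to 28290132) was strong in Bcat_KO and HOXA9_KO, at 23.8 to 29.2, and listed in the dKO at 56.4; 2 regions at any position shared this pattern (0.00438%). Lyn had 1 region open in PRMT1_KO alone (chromosome 4, 3766359 to 3766798), at 28.7 and 31.5, with 1 other peak, at 65.7 in Bcat_KO replicate 1.

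Within the functional lists, calls were few. The stem and progenitor transcription factors had no call in the comparisons with WT, where 191 to 202 of their regions were tested and 0.0691% to 0.489% of all regions were called in each comparison and direction, so about 1 call or fewer is what the general share gives. In HOXA9_KO against PRMT1_KO 2 of their 196 regions tested were closed (1.02%, beside 0.381% of all regions), in Ikzf1 (chromosome 11, 11730094 to 11730799) and in Ikzf2, both zinc finger factors of lymphoid development. The Ikzf1 region ranked at 19.2 and 30.7 in PRMT1_KO, 97.3 and 78 in HOXA9_KO and 27.2 to 55.7 in WT and Bcat_KO. Regions in the cytokine genes Il6ra, Jak1 and Lyn and in Arid1b were closed in the same comparison, as were regions in Xrcc4 and Wwox. Wwox, a fragile-site gene, was placed in the repair list. The closed regions were 3 of 84 in the cytokine list, 1 of 94 in the chromatin list and 2 of 48 in the repair list. Il6ra (chromosome 3, 89911180 to 89911690) ranked at 24.9 and 16.7 in PRMT1_KO, 76.3 and 69.8 in HOXA9_KO, 49.9 and 64.6 in WT and 35.1 and 32.2 in Bcat_KO. In the opened direction of this comparison lay 5 of the long neuronal genes, Nav3, Tmtc2, Rbfox1 and Opcml among them, with 3 regions in Nav3 and 2 in Opcml. They made up 8 of the 149 regions of this list tested (5.37%), beside 0.303% of all regions. The lists were drawn up with earlier results known, so their shares are a description and were not tested. The first Nav3 region (chromosome 10, 109924224 to 109924627) ranked at 12.2 and 18.3 in HOXA9_KO and 39.7 and 23.1 in Bcat_KO, and WT and PRMT1_KO had no peak.

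Of the Wnt genes, Lef1, Axin1, Lrp5 and Lgr5 had a region opened against WT. The opened regions of this list were 4 of 66 tested in HOXA9_KO (6.06%, beside 0.489% of all regions), 2 of 63 in Bcat_KO (3.17%, beside 0.293%) and 2 of 55 in PRMT1_KO (3.64%, beside 0.202%). None was closed, where 0.17%, 0.086% and 0.0691% of all regions were and less than 1 call is what these shares give. The list was drawn up with earlier results known, so these shares are a description. The Axin1 region (chromosome 17, 26167982 to 26168468; Axin1 is the scaffold of the β-catenin destruction complex) ranked at 37.6 and 40.2 in HOXA9_KO, 28 and 22.9 in Bcat_KO and 22.4 and 31.9 in PRMT1_KO, and no WT library listed it. It was opened by the rule in Bcat_KO and PRMT1_KO, and in HOXA9_KO it lay outside the strongest 14162 peaks of both libraries. The Lrp5 region (a Wnt co-receptor gene; chromosome 19, 3669144 to 3669502) ranked at 25.9 and 25.5 in HOXA9_KO and 29.8 to 56.3 in the other mutants. Shld1, a shieldin subunit that limits resection of broken DNA, had a region (chromosome 2, 132695641 to 132696189) at 32.4 and 36.3 in WT, 76 and 66.8 in HOXA9_KO, 75.2 and 79.8 in Bcat_KO and no peak in PRMT1_KO. It was called closed in Bcat_KO and PRMT1_KO. Dnmt3a, the de novo DNA methyltransferase gene, had a region (chromosome 12, 3892506 to 3893183) called opened in Bcat_KO alone, at 26.6 and 29.9, beside 91.4 in WT replicate 1, 26.1 and 37.5 in PRMT1_KO and 96.4 and 39 in HOXA9_KO, so the HOXA9_KO libraries stood far apart.

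Of the starts whose sequences are shown, 3 lay under a called region. Nhsl1 (region at chromosome 10, 18407132 to 18407818) had no WT peak and ranked at 31.9 and 26.2 in HOXA9_KO, 35.7 and 38.2 in Bcat_KO and 51.7 and 62.5 in PRMT1_KO, and was opened in HOXA9_KO against WT. Plxnb2 (chromosome 15, 89180375 to 89181203) ranked at 34.7 and 33.7 in HOXA9_KO against 69.8 and 85.8 in PRMT1_KO, with 65.9 in WT replicate 1 and 47.8 in the dKO, and was opened in HOXA9_KO against PRMT1_KO. Tbc1d1 (chromosome 5, 64159467 to 64160539) ranked at 31 and 46.1 in WT against 66.7 and 74.2 in Bcat_KO, and at 50.4 to 85.8 in the other mutants, and was closed in Bcat_KO against WT.

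The dKO list held 2486 gene-body regions, of which 378 (15.2%) were in no other library. Among gene-body regions with a peak in all 8 other libraries, 1643 of 5512 (29.8%, 95% Wilson interval 28.6 to 31%) also had a dKO peak, against 58.8% (57.8 to 59.8%) of gene ends and 27.9% (26.6 to 29.3%) of regions outside genes. Presence followed strength: 85.7% (82.4 to 88.5%) of the gene-body regions with a mean percentile of up to 10 had a dKO peak, and 10% (7.55 to 13.2%) of those with a mean percentile above 60. At the same strength gene ends were held more often, for instance 66.6% (64.6 to 68.6%) against 49.9% (46.5 to 53.4%) at percentiles of 10 to 20. Gene-body regions at a start were held in 54.5% (51.7 to 57.3%) and the others in 23% (21.8 to 24.3%). These shares were not matched for strength, and regions at a start ranked stronger than the others. With depth of 2.41 reads per kb in this library, a missing peak is a region not detectable at that depth, and the intervals cover counting error only.

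**Figure D5:**
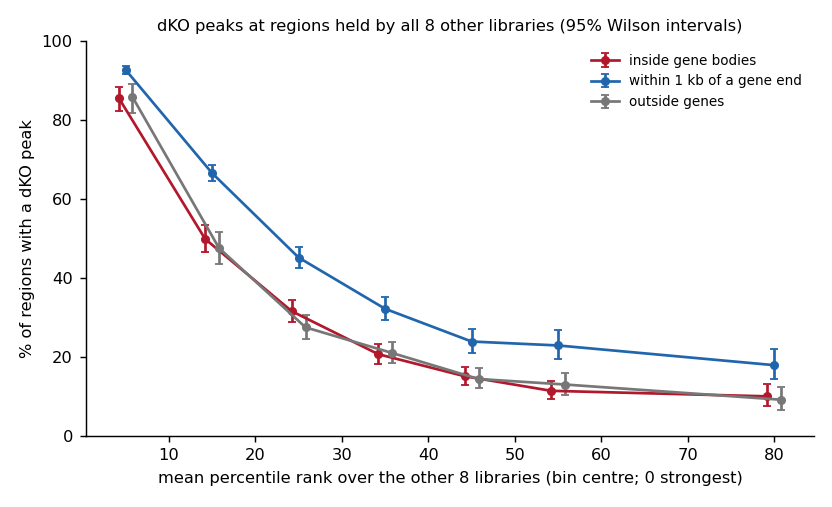
Percentage of regions with a peak in all 8 other libraries that also had a dKO peak, with 95% Wilson intervals, against their mean percentile rank in the other 8 (0 strongest), for 3 positions. Gene-body regions pass from 85.7% in the strongest bin to 10% in the weakest, close to regions outside genes and below gene ends.

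The dKO, which did not enter the calls, listed 13 of the 54 gene-body regions opened in HOXA9_KO against PRMT1_KO (24.1%) and 0 of the 67 closed ones, which allows a share of up to 4.48%. For comparison, it listed 43.6% of the 2973 gene-body regions among the strongest 14162 peaks of both HOXA9_KO lists and 38.1% of the 3159 among the strongest 14162 of both PRMT1_KO lists. For Bcat_KO this base was 40.9% of 3018 and for WT 46.2% of 2632. The bases include the strongest regions of each list and were not matched for strength to the called regions. Against WT it listed 15 of 96 regions opened in HOXA9_KO, 5 of 56 opened in Bcat_KO and 1 of 34 opened in PRMT1_KO. Of the closed regions it listed 2 of 23 in HOXA9_KO, 1 of 17 in Bcat_KO and 2 of 10 in PRMT1_KO. Of the regions of the dKO alone, the strongest lay in Has1 (a hyaluronan synthase), at a percentile of 11.6, and others lay in Eml6 at 17.2 and Gng2 at 38.7.

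Regions at the edge of the rule did not stand out. The 319 regions whose midpoint lay 1000 to 1100 bp from a gene end, just inside the rule, had a median of 3 libraries and a median percentile of 75.5, and the 314 at 900 to 1000 bp, just outside it, had a median of 3 libraries and a median percentile of 75.9. Of microRNA hairpins, 28 lay under a gene-body region, 7 of them under a region present in all 9 libraries, and Mir5620 in Clcn4 was the strongest of these, at a mean percentile of 1.43.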

How the data were processed

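ATAC-seq, which reads out where a transposase can cut into accessible chromatin, was run on 50000 cells per library (30 min at 37 °C, 10 PCR cycles, fragments of 170 to 800 bp, per the labels' protocols). Per the submitters' processing notes, the authors used Bowtie2 2.4.2, SAMtools 1.14, Picard 2.27.4 and MACS2 on GRCm38/mm10, with 1 deposited peak list per library. Each list gave, per the file's values, a score, a fold enrichment (ratio to local background), a −log10 p-value and a −log10 q-value for each peak, which the authors did not normalize between libraries. The p-value served to rank peaks within 1 list, the q-value as a stricter threshold in an alternative, and fold and p together to infer background depth; the authors' fold is otherwise printed as a description.

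Background depth was inferred from fold and p of the 5000 weakest peaks of each list. The lists hold no read totals, and the 2 libraries per group limit the precision. Genes, internal starts and promoter sequences came from RefSeq tables of GRCm38.p6. Differences were tested by exact permutation over libraries, with Benjamini-Hochberg adjustment; shares in the dKO have 95% Wilson intervals, and a count of 0 allows up to 3. Replicate numbers did not pair the libraries, as the correlation of deviations between same-numbered libraries was -0.0159 to 0.0512 over 5512 regions. Named were the genes with most regions in all and per 100 kb, the strongest regions of all 9 libraries, the strongest calls of each comparison, calls in the listed genes and regions of 1 or more groups alone. The members and lists were chosen with earlier results of these data known. Sequence of the regions themselves was not analysed here, so the planned motif search ran on RefSeq promoter windows. The procedures were tested on simulated data. Tools were Python 3.11.15, pandas 2.3.3, NumPy 2.4.6 and SciPy 1.17.1. Alternatives were lists as deposited, ranking by fold, a −log10 q-value of at least 5, merging at 100 bp, a gene-end distance of 2 kb, a replicate block and leaving out each library. Some single genes are not reported here.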

Additional observations from a re-analysis of the deposited data

Results flagged for a closer look

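For the long neuronal genes the count of gene-body regions at equal list length lay above both WT libraries in both HOXA9_KO libraries and below both in both PRMT1_KO libraries. The values were 94 and 85 in WT, 102 and 113 in HOXA9_KO and 66 and 62 in PRMT1_KO, so the mutant means differed by 43.5 regions, and this difference was not tested. Ctnna3, chosen after its values were seen, had 3 and 0 regions in WT, level with values of both mutants. These mutants kept their order in it, with 3 and 5 regions in HOXA9_KO and 0 and 0 in PRMT1_KO. For Foxp1 the order was reversed, with 15 and 14 regions in PRMT1_KO, 12 and 12 in WT and 11 and 11 in HOXA9_KO, a difference of 3.5 regions between the mutant means that was not tested either.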

How the results depend on the processing

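The share inside gene bodies kept its direction and its side of the threshold under each alternative run. PRMT1_KO exceeded WT by 1.61 points in the main analysis, by 1.31 to 1.91 points when 1 library was left out, and by 3.86 points with lists as deposited (exact permutation p = 0.0476). With replicate number as a block, the exact permutation p was 0.0417 for the 1.61 points, the smallest that 24 arrangements allow. The rank of gene bodies against gene ends was 28.4 to 31.4 points in each alternative and 30.9 to 32.7 without 1 library. The rank against peaks outside genes reversed to 0.425 points (exact permutation p = 0.363) when ranked by fold and fell short of the threshold at -1.08 points (exact permutation p = 0.16) with a −log10 q of at least 5; without 1 library it was -1.34 to -0.98; the cause was not tested.

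Counts of calls moved by more than 1.5 times under several alternatives. The cause was not tested beyond list length and threshold, which the alternatives change by construction. Merging at 100 bp kept each count within that factor. So did ranking by fold for Bcat_KO against WT (81 opened and 21 closed), HOXA9_KO against WT (126 and 34) and HOXA9_KO against PRMT1_KO (55 and 67). The counts that moved follow. With lists as deposited, opened and closed regions numbered 338 and 10 in Bcat_KO against WT, 332 and 14 in HOXA9_KO against WT, and 242 opened in PRMT1_KO against WT. The same setting gave 70 closed in HOXA9_KO against Bcat_KO, 115 and 157 in HOXA9_KO against PRMT1_KO, and 48 and 28 in Bcat_KO against PRMT1_KO. With a −log10 q of at least 5 the numbers were 27 and 1, 52 and 14, and 18 and 1 against WT, 7 and 6 in HOXA9_KO against Bcat_KO, 39 closed in HOXA9_KO against PRMT1_KO, and 4 and 0 in Bcat_KO against PRMT1_KO. Ranked by fold, PRMT1_KO against WT gave 58 and 16, HOXA9_KO against Bcat_KO 32 closed and Bcat_KO against PRMT1_KO 2 closed. Leaving out 1 library asks less of a region, and opened counts against WT were 116 to 174 in Bcat_KO, 177 to 214 in HOXA9_KO and 86 to 155 in PRMT1_KO, closed counts 33 to 89, 48 to 114 and 19 to 68. Between mutants they were 34 to 60 opened and 41 to 80 closed in HOXA9_KO against Bcat_KO, 86 to 130 and 111 to 164 in HOXA9_KO against PRMT1_KO, and 15 to 42 and 18 to 28 in Bcat_KO against PRMT1_KO. The dKO held 17.1% of the gene-body regions of the other 8 libraries at a −log10 q of at least 5, against 29.8%. The alternatives on recurrence, internal starts and the dKO list length were chosen after seeing the data. A peak missing from a shallow list is not detectable there, and 2 libraries per group limit each call.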
